A study of Mus musculus with 9 samples.

Results

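The genes described here make, sense, move and store cholesterol. They are 28 named genes, and all 28 were found, each by its symbol on a single row, among the 16636 genes of the count table. RNA was measured by mRNA sequencing in wild-type mouse embryonic stem cells of the line E14, kept under naive 2i/LIF conditions with serum replacement. Untreated cells received no siRNA, siLuc cells were transfected with a control siRNA against luciferase, and siStag3 cells with siRNA against Stag3, which encodes a subunit of cohesin. Each group has 3 libraries. The transfected cells received 50 pmol of siRNA with a lipid reagent at seeding and again on the next day, and the siRNA treatment lasted 48 hours. All groups share the cell line, the MEK inhibitor PD0325901 (1 µM), the GSK3 inhibitor CHIR99021 (3 µM) and LIF (1000 U/ml). Untreated cells differ from siLuc cells by the lipid reagent as well as by the siRNA, so these cannot be told apart. The number of cells seeded and the treatment time are given for the transfected groups only. Untreated cells may therefore differ in these too. The series' design text calls the samples biological replicates of 1 line.

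Cholesterol is built from acetyl-CoA. The mevalonate pathway makes isoprenoid units, these are joined to squalene, squalene is closed into lanosterol, and a series of reductions and demethylations turns lanosterol into cholesterol. When sterols are scarce in the endoplasmic reticulum, SCAP carries SREBP2 to the Golgi, where it is cut, and the freed factor enters the nucleus and activates the genes of the pathway from sterol regulatory elements, usually beside binding sites of NF-Y. When sterols are plentiful, INSIG proteins hold SCAP back, while oxysterols activate the LXR receptors, whose targets export cholesterol.

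Promoter sequences of 4 members are shown because of the role these genes have below. Hmgcs1 is the only matched member with the core letters of a sterol regulatory element, Mvk has the most NF-Y boxes, and Tm7sf2 and Npc2 are the members that passed the test between siLuc and untreated cells. Each line holds the 250 bases before the annotated start, from RefSeq on GRCm38.p6, 5′ to 3′ on the strand of the gene. Capitals mark the core letters TCACNCCAC and the NF-Y box CCAAT, on either strand, so that an NF-Y box on the other strand reads ATTGG.

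Hmgcs1, chr13:119690101-119690350, plus strand: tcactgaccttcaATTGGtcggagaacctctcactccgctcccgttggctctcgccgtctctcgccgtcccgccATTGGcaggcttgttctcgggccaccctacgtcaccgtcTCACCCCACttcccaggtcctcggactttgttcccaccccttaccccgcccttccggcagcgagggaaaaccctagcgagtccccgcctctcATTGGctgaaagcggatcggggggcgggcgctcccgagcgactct

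Mvk, chr5:114444019-114444268, plus strand: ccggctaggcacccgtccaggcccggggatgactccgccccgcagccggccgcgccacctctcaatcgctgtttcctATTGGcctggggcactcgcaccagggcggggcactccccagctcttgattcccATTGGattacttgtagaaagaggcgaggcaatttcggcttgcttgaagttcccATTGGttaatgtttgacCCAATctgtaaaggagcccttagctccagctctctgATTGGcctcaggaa

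Tm7sf2, chr19:6067851-6068100, minus strand: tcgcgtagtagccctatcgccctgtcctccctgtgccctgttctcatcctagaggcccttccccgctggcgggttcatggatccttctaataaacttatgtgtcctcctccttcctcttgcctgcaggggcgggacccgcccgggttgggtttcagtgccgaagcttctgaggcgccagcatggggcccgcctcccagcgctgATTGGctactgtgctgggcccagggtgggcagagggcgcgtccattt

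Npc2, chr12:84773113-84773362, minus strand: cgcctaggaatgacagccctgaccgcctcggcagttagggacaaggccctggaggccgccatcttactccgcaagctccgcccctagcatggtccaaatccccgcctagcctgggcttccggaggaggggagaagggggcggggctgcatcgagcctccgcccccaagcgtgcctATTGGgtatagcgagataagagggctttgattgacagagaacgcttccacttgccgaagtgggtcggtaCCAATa

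The search covered windows of 300 bases, 250 before to 50 after each start, and 23 of the 28 members matched the promoter table by symbol. The core letters of the sterol regulatory element were in 1 of the 23 members, Hmgcs1, where they begin 137 bases before the start. They were in 1.44% of all 27025 genes of the table and in 1.24% of its 32851 windows. The NF-Y box was in at least 1 window of 21 of the 23 members (91.3%), against 41.1% of all genes. By window, 21 of the 29 windows of members held it, against 37.4% of all windows. The genes of the promoter table were not limited to those expressed in these cells, so these shares are no measure for expressed genes. Mvk had 5 such boxes in its window, Npc2 had 2 and Tm7sf2 had 1. These matches describe letters and show no binding.

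Total counts ran from 29332436 to 44527534 per library, and members had between 190 and 17502 counts. Counting error alone is 7.25% for Soat1, 6.88% for Tm7sf2 and 1.17% for Npc2 at their lowest counts. The coefficient of variation of CPM within a group, with both sets together, was larger. It was 20.4% to 50.1% for Soat1 and 15.1% to 27.8% for Tm7sf2. Column names give each library a set number and an experiment number, whose meaning the labels do not state. Each group has 2 libraries of Set 1 (experiments 1 and 3) and 1 library of Set 3, which is of experiment 1 for siLuc and of experiment 5 for the other groups. The set was a term of the fit, and the biological coefficient of variation was 7.62% with it and 14.6% without. Stag3 was at 14.8 ± 1.12 CPM, the count scaled to the size of the library, in siStag3 and 24.2 ± 2.20 in siLuc (SD, n = 3), which is -0.71 on the log2 scale (SE 0.0722, adjusted p 0.00205 in edgeR). Without the set in the fit its adjusted p was 0.605. Markers of naive stem cells were high in every library, summing to 4729 to 5230 CPM over 8 genes. Fibroblast markers summed to 1.34 to 2.52 CPM, endoderm markers to 1.88 to 3.82 and trophoblast markers to 4.16 to 7.29. Afp, Col3a1 and Postn had 0 counts in at least 1 library. Neural markers summed to 103.5 to 136.7 CPM, nearly all of it Tubb3 (up to 132.9 CPM).

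All 28 members were expressed and passed the filter on low counts. Levels between genes are compared only as CPM per kb of the principal transcript, a scale that depends on the transcript chosen. In untreated cells Npc2, which encodes a carrier of cholesterol in the lysosome, was highest at 94.1 CPM per kb. Fdps, the synthase of farnesyl diphosphate, followed at 87.1 and Hmgcs1, the synthase of HMG-CoA, at 80.4. Sqle, the monooxygenase that acts on squalene, was at 53.1 and Insig1 at 52.0. The lowest members were Soat1, the enzyme that esterifies cholesterol for storage, at 0.869 CPM per kb, Hsd17b7 at 2.83 and Sc5d at 4.65. Every role group spanned a wide range: the members that work on the mevalonate pathway and its isoprenoids ran from 5.54 (Ggps1) to 87.1 (Fdps), and those from lanosterol to cholesterol from 2.83 (Hsd17b7) to 49.3 (Lbr). Sqle and Insig1, neighbours in this order, differ by less than their spread between libraries, while Soat1 and Hsd17b7 at the low end differ by more. The coefficient of variation of CPM within a group had a median of 10.0% over members and groups and reached 50.1% for Soat1 in siLuc.

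**Figure D1:**
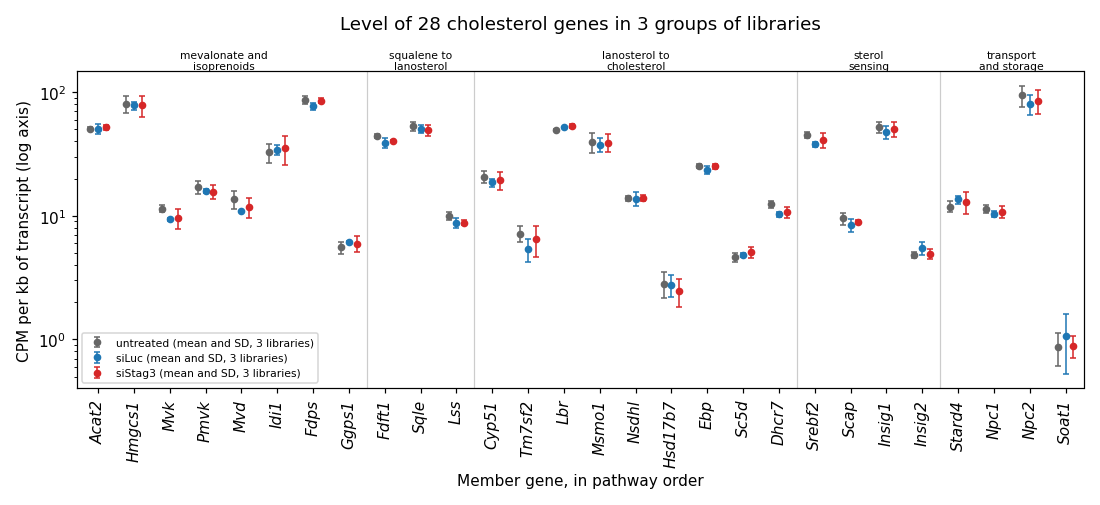
Mean CPM per kb of transcript (log axis) of the 28 members in pathway order, with SD over 3 libraries, for untreated (grey), siLuc (blue) and siStag3 (red) cells. Levels run from 0.869 (Soat1) to 94.1 (Npc2) in untreated cells, and within a gene the points of the groups lie close together.

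Between siStag3 and siLuc, which were both transfected and differ in the target of the siRNA, none of the 28 members passed the edgeR test. The Set 3 libraries of these groups also differ in experiment number. In bulk RNA, fewer cells of a type and less RNA per cell cannot be told apart, here and below. The smallest adjusted p was 0.553, and 2 members, Tm7sf2 and Fdps, had an unadjusted p under 0.05. Of all 14246 genes tested 4 passed (0.0281%), and 1122 (7.88%) had an unadjusted p under 0.05. Fitted log2 fold changes of the members lay between -0.18 and 0.25, with 20 above 0 and 8 below and a median of 0.05 (-0.0048 over all genes, of which 51.7% were below 0). The 95% intervals, each for 1 member alone in the fit with the set, reached from -0.48 to 0.46 over all 28 members. Differences of that size could have been missed. Without the set the SE was 0.332 against 0.137 for Soat1 and 0.217 against 0.0978 for Tm7sf2, so these intervals are no firm bound. DESeq2, tried as an alternative, also called no member. Without the set in the fit no member and no gene passed (0%), and with a correction for GC content no member passed while 0.505% of genes did. Groups did not overlap for 1 member, Fdps, against 6.59% of all genes. Only 10 of the 28 members moved in the same direction within Set 1 and within Set 3, against 47.7% of all genes.

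The comparison of siLuc with untreated cells covers transfection without the knockdown, together with any difference in seeding or time in culture. The Set 3 libraries of these groups also differ in experiment number. Here 2 members passed the edgeR test, both lower in siLuc: Tm7sf2 and Npc2. That is 7.14% of the members, against 4.2% of all genes (598 of 14246), too near the background to be a result about the members as a group. The median log2 fold change was -0.11, with 21 members below 0 and 7 above, while the median of all genes was -0.0024 and 50.4% were below 0. An unadjusted p under 0.05 was found for 13 members, 12 lower and 1 higher, and for 27.8% of all genes. Groups did not overlap for 7 members, 6 lower and 1 higher, against 19.9% of all genes. In 24 of 28 members the difference had the same direction in both sets, 17 lower and 7 higher, against 71.9% of all genes. Without the set no member passed, against 0.00702% of genes. With the GC correction 6 members passed, all lower (Cyp51, Npc2, Insig1, Hmgcs1, Fdft1 and Dhcr7), 21.4% of the members against 6.61% of genes, and Tm7sf2 missed the threshold.

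siStag3 against untreated cells, which shares the untreated libraries with the comparison above, combines transfection and knockdown, with the same limit on seeding and time. No member passed in the edgeR test (smallest adjusted p 0.143), against 2.53% of all genes. In the same test 8 members had an unadjusted p under 0.05, 7 of them lower and 1 higher, against 17% of all genes. DESeq2 called no member either. The median was -0.07, with 19 members below 0 and 9 above, and that of all genes -0.0056. Groups did not overlap for 2 members, Fdft1 (lower) and Lbr (higher), against 10% of all genes. Without the set no member passed (0.014% of genes), and with the GC correction Npc2 and Hsd17b7 did, both lower (6.94% of genes). When the siStag3 library of Set 3 was left out, 5 members passed, with Srebf2, Lss, Mvk and Dhcr7 lower and Stard4 higher. Over all genes the number past the threshold rose as well in that fit, from 361 to 1591.

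**Figure D2:**
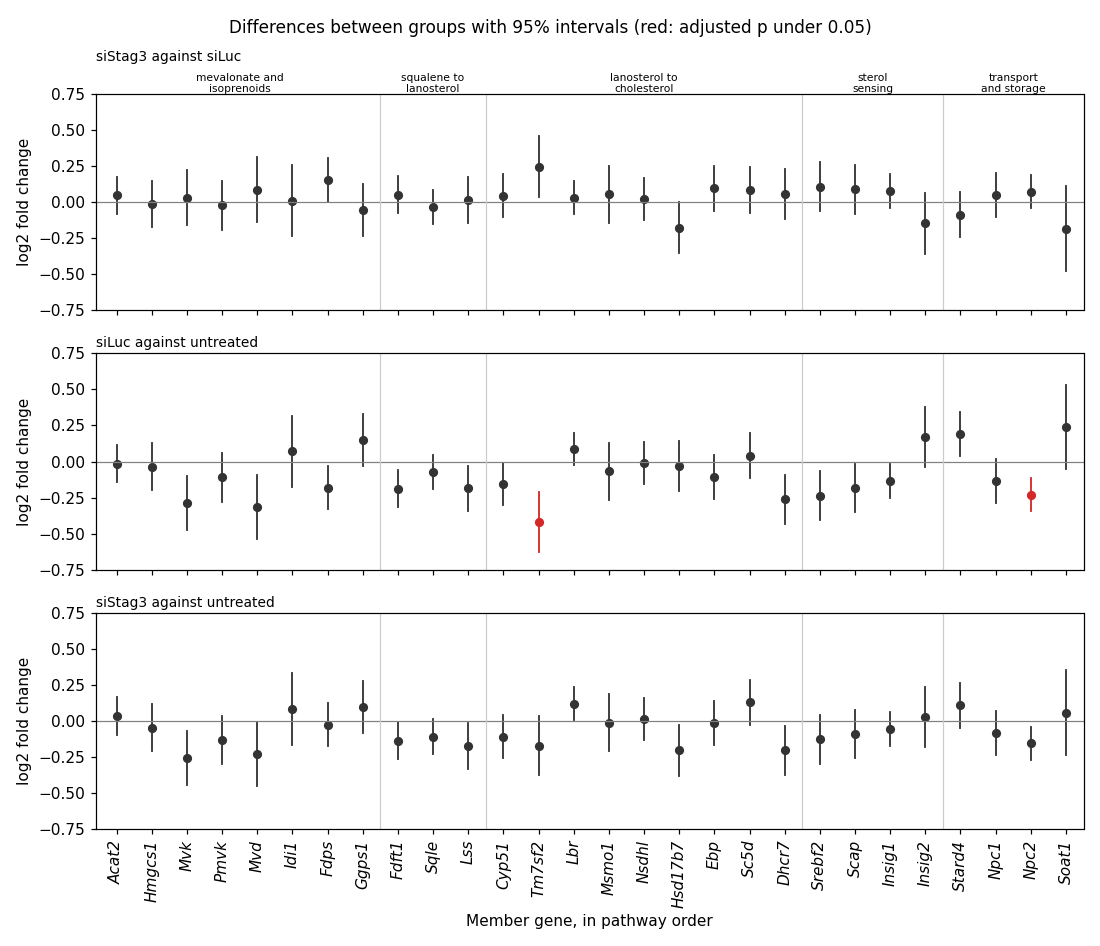
Fitted log2 fold change (points) and 95% interval (lines) of each member in the 3 comparisons, with the genes in pathway order and those with an adjusted p under 0.05 in red. Only Tm7sf2 (-0.42) and Npc2 (-0.23) in siLuc against untreated cells are red, and in siStag3 against siLuc the points lie between -0.18 and 0.25.

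In the mevalonate part, 8 members were tested and none passed in any comparison. In siLuc against untreated cells 6 were below 0 (median -0.07), and in siStag3 against siLuc 5 were above 0 (median 0.02). Mvk encodes mevalonate kinase, which puts the first phosphate on mevalonate. It was at 18.3, 18.2 and 20.5 CPM in untreated cells (Set 1 experiment 1, Set 1 experiment 3 and Set 3, an order kept for all groups below), at 15.8, 14.9 and 15.8 in siLuc and at 14.4, 14.0 and 19.4 in siStag3. Every siLuc library was below every untreated one, while the Set 3 library of siStag3 lay among the untreated values. siLuc lay -0.29 from untreated cells on the log2 scale (SE 0.0867, adjusted p 0.0674 in edgeR), and the GC correction left -0.11. Mvd, which makes isopentenyl diphosphate, also had siLuc libraries (19.2 to 19.3 CPM) below all untreated ones (19.6 to 27.2), with -0.31 (SE 0.104, adjusted p 0.0855) and -0.13 with the GC correction.

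Fdps was at 112.5, 117.5 and 130.9 CPM in untreated cells, at 110.8, 108.9 and 98.3 in siLuc and at 111.5, 120.1 and 122.8 in siStag3. All siLuc libraries were below those of both other groups. The siLuc difference from untreated cells was -0.18 (SE 0.0705, edgeR adjusted p 0.122), and siStag3 lay 0.15 above siLuc (SE 0.0706, adjusted p 0.635). That second difference came mainly from Set 3, at 0.32, and was 0.07 in Set 1. Other genes share 27.9% of the 31-base sequence words of Fdps, mostly the overlapping Gm43738, so its counts may be split. Hmgcs1, with the sterol regulatory element letters shown above, was at 276, 325 and 234 CPM in untreated cells, 285, 278 and 248 in siLuc and 298, 306 and 209.7 in siStag3. These ranges overlap fully, and the siLuc difference was -0.03 (adjusted p 0.796), or -0.17 with the GC correction (adjusted p 0.0236). The 4 other members, Acat2, Pmvk, Idi1 and Ggps1, differed by -0.11 to 0.15 in siLuc and by -0.13 to 0.10 in siStag3 against untreated cells. Acat2, the thiolase that starts the pathway, shares 43.7% of its words with Acat3.

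From squalene to lanosterol, all 3 members were below 0 in both comparisons with untreated cells, and none passed. Fdft1, the synthase that joins farnesyl units to squalene, was at 164.7, 168.2 and 158.3 CPM in untreated cells, at 157.1, 145.7 and 129.0 in siLuc and at 146.5, 153.6 and 146.5 in siStag3. Both transfected groups lay wholly below the untreated one. On the log2 scale siLuc lay -0.19 from untreated cells (SE 0.0598, adjusted p 0.0762 in edgeR) and siStag3 -0.14 (SE 0.0598, adjusted p 0.265). Scaling by total count alone took the siLuc adjusted p to 0.0433. Fdft1 shares 14.3% of its 31-base words with Gm6781, and 774 exon bases with Ctsb on the other strand, and Ctsb differed by -0.14 in siLuc (adjusted p 0.103). Lss, which closes the ring to lanosterol, differed by -0.19 in siLuc (SE 0.0740, adjusted p 0.127) and -0.17 in siStag3 (adjusted p 0.257). Sqle differed by -0.07 and -0.11 (adjusted p 0.393 and 0.335).

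Among the 9 members that turn lanosterol into cholesterol, Tm7sf2 fell in siLuc. In that comparison 7 of the 9 were below 0 (median -0.07), and in siStag3 against siLuc 8 of 9 were above 0 (median 0.05), none past the threshold. Of those 8, only Tm7sf2 and Ebp were above 0 within both sets. Tm7sf2 encodes a sterol reductase of the endoplasmic reticulum, a role it shares with Lbr, the lamin B receptor of the inner nuclear membrane. Tm7sf2 was at 9.99, 9.28 and 12.3 CPM in untreated cells, at 6.72, 7.23 and 9.77 in siLuc and at 7.70, 8.19 and 12.5 in siStag3. The siLuc library was the lowest within Set 3, and within Set 1 both siLuc libraries were below all others, but the groups overlap when the sets are put together. The siLuc fold was 0.748 of untreated cells (log2 -0.42, SE 0.0963, edgeR adjusted p 0.0317), with -0.45 within Set 1 and -0.33 within Set 3. Leaving out any of the 6 libraries ended the call (adjusted p 0.0533 to 0.137), and so did the GC correction (-0.28, adjusted p 0.0558). Tm7sf2 also shares 532 exon bases with Vps51 on the same strand, so reads of the 2 genes may be mixed, and Vps51 differed by -0.29 in siLuc (adjusted p 0.0907). In siStag3 Tm7sf2 was 0.25 above siLuc (SE 0.0978, adjusted p 0.553) and -0.17 from untreated cells (adjusted p 0.374).

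Lbr was at 172.9, 169.9 and 175.9 CPM in untreated cells, 183.8, 183.2 and 184.2 in siLuc and 189.8, 194.5 and 179.2 in siStag3. Both transfected groups lay above the untreated libraries, by 0.09 in siLuc (SE 0.0531, edgeR adjusted p 0.295) and 0.12 in siStag3 (SE 0.0531, adjusted p 0.273). The GC correction left 0.02 in siLuc (edgeR adjusted p 0.842) and 0.08 in siStag3 (adjusted p 0.257). Dhcr7, the reductase that removes a double bond of the B ring, was at 35.7, 32.0 and 36.6 CPM in untreated cells, 28.6, 30.5 and 27.6 in siLuc and 28.8, 28.1 and 33.8 in siStag3. Its siLuc libraries were all below the untreated ones, by -0.26 on the log2 scale (SE 0.0794, adjusted p 0.0677). The GC correction gave -0.21 (adjusted p 0.0411), and DESeq2 -0.26 (adjusted p 0.042). Cyp51, the lanosterol demethylase, differed by -0.16 in siLuc (adjusted p 0.163), and the GC correction took this to -0.24 (adjusted p 0.0024). Hsd17b7, a 3-ketosteroid reductase of the pathway, differed by -0.18 in siStag3 against siLuc (SE 0.0830, adjusted p 0.641) and by -0.21 against untreated cells (SE 0.0821, adjusted p 0.223). The 4 others, Msmo1, Nsdhl, Ebp and Sc5d, lay between -0.11 and 0.04 in siLuc and between -0.01 and 0.13 in siStag3 against untreated cells.

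Of the 4 sensing genes none passed. Srebf2, which encodes SREBP2, was at 236.8, 213.3 and 234.5 CPM in untreated cells, at 190.2, 203.3 and 185.9 in siLuc and at 204.2, 183.8 and 239.4 in siStag3. The siLuc libraries lay below all untreated ones, while siStag3 spanned both. The siLuc difference was -0.24 (SE 0.0791, edgeR adjusted p 0.0862). It passed with DESeq2 (adjusted p 0.0456), while the GC correction left -0.06 (adjusted p 0.443). Srebf2 has a GC content of 58.3%, against a median of 50.3% over all genes tested. Its escort Scap differed by -0.18 in siLuc (adjusted p 0.152) and by -0.004 with the GC correction. Insig1, itself a target of SREBP2, differed by -0.13 (SE 0.0561, adjusted p 0.142). After the GC correction this was -0.17 (adjusted p 0.02). Insig2, the other SCAP anchor, went the other way and was not past the threshold, at 12.6, 12.6 and 14.0 CPM in untreated cells, 15.6, 12.8 and 15.8 in siLuc and 12.3, 14.5 and 13.0 in siStag3. These libraries overlap, and the siLuc difference was 0.17 (SE 0.0972, edgeR adjusted p 0.26) and that of siStag3 from siLuc -0.15 (SE 0.0980, adjusted p 0.724). The GC correction took these differences to 0.10 and -0.11.

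Among the 4 genes of transport and storage, Npc2 fell in siLuc. It was at 266.5, 285.7 and 379.3 CPM in untreated cells, at 233.6, 238.6 and 320.6 in siLuc and at 239.8, 248.9 and 349.5 in siStag3. Within each set the siLuc libraries were the lowest and the untreated ones the highest, while the Set 3 library of each group was far above its Set 1 libraries. The siLuc fold was 0.852 of untreated cells (log2 -0.23, SE 0.0529, edgeR adjusted p 0.0312), with -0.22 within Set 1 and -0.24 within Set 3. The call was lost in 5 of 6 fits that left out 1 library (adjusted p 0.0492 to 0.134) and held only without the untreated library of Set 1 experiment 1. It held with the GC correction (-0.20, adjusted p 0.00573). siStag3 lay between the groups, at -0.16 from untreated cells (SE 0.0529, adjusted p 0.144) and 0.07 from siLuc (SE 0.0530, adjusted p 0.736). Npc1, the membrane protein that takes cholesterol over from NPC2, differed by -0.13 in siLuc (adjusted p 0.227) and -0.08 in siStag3 (adjusted p 0.568). Stard4, a cytosolic sterol carrier, was 0.19 higher in siLuc (SE 0.0722, adjusted p 0.113), and the GC correction left 0.11. Soat1 differed by 0.24 (SE 0.136, adjusted p 0.261), with 0.06 within Set 1 and 0.51 within Set 3, where the siLuc library reached 14.0 CPM. For Soat1 the GC correction left 0.12.

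**Figure D3:**
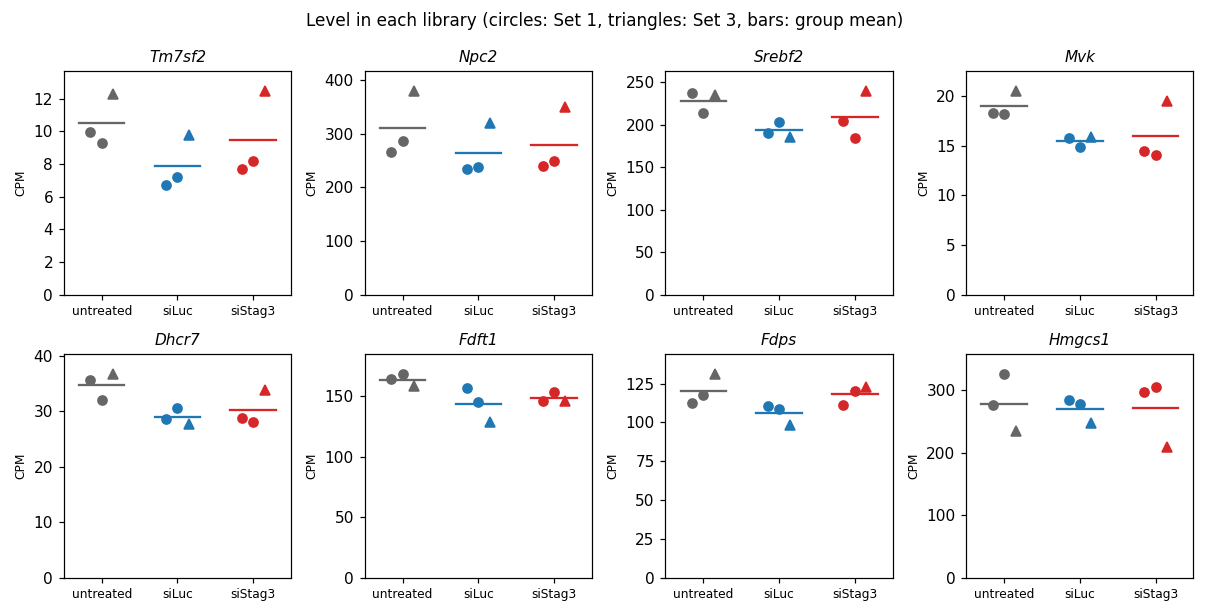
CPM of 8 members in each library, by group, with circles for Set 1, triangles for Set 3 and a bar for the group mean. Npc2 and Tm7sf2 are lowest in siLuc within each set, the siLuc points of Srebf2, Mvk, Dhcr7, Fdft1 and Fdps lie below all untreated points, and those of Hmgcs1 overlap them.

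More members passed the test between sets than between groups. In the same edgeR fit 17 of 28 (60.7%) passed for Set 3 against Set 1, 6 higher and 11 lower, against 42.7% of all genes (3053 higher and 3023 lower). Lower in Set 3 were Hsd17b7 (-0.62), Idi1 (-0.42), Hmgcs1 (-0.35), Msmo1 (-0.32), Stard4 (-0.32), Insig1 (-0.31), Cyp51 (-0.29) and 4 others. Higher were Soat1 (0.77), Tm7sf2 (0.49), Npc2 (0.47), Mvd, Mvk and Pmvk. By size, only Soat1 and Hsd17b7 differed more between sets than Tm7sf2 and Npc2, the members called in siLuc. The part that the set plays in single differences between groups was not tested beyond the values within each set given above.

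Other genes of sterol and lipid metabolism were read from lists that share no member with the 28. Among 9 tested LXR targets and receptors, 3 rose and 2 fell in siLuc against untreated cells, and 4 rose in siStag3. Abca1, which exports cholesterol to lipoproteins, was at 49.6, 45.5 and 26.0 CPM in untreated cells, 87.2, 106.8 and 60.2 in siLuc and 107.1, 109.1 and 45.2 in siStag3. Its level was higher in both transfected groups within each set, by 1.09 in siLuc (SE 0.113, edgeR adjusted p 0.00106) and 1.07 in siStag3 (SE 0.114, adjusted p 0.00092). The exporter Abcg1 rose by 1.16 and 1.30 and Mylip, a ubiquitin ligase of lipoprotein receptors, by 0.80 and 0.94 (adjusted p 0.000378 or less for each). Srebf1, the SREBP gene of fatty acid synthesis, rose in siStag3 only past the threshold (0.35, adjusted p 0.0486) and differed by 0.17 in siLuc (adjusted p 0.219, or 5.33e-05 with the GC correction), while the 2 transfected groups did not pass against each other (0.18, adjusted p 0.636). The 2 that fell in siLuc, named after their values were seen, were Nr1h2, which encodes an LXR receptor (-0.44, adjusted p 0.0426), and Apoe (-0.35, adjusted p 0.022). Their GC content is 60.8% and 60.1%. With the GC correction the lowest value of this list in siLuc was -0.23, and 2 of its genes still passed as lower.

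In the list of 14 sensing partners 1 gene passed. Rnf145, a sterol-responsive ubiquitin ligase of the endoplasmic reticulum, was at 37.5, 37.2 and 36.7 CPM in untreated cells, at 51.5, 55.8 and 52.9 in siLuc and at 53.8, 57.9 and 52.7 in siStag3. Every transfected library was above every untreated one, by 0.52 in siLuc (SE 0.0613, edgeR adjusted p 0.000637) and 0.56 in siStag3 (SE 0.0613, adjusted p 0.000351). Of 10 genes of fatty acid synthesis, 2 rose in siLuc and 3 in siStag3. Scd1 and Scd2, desaturases that make monounsaturated fatty acids, rose by 0.47 and 0.46 in siLuc (adjusted p 0.00106 and 0.00121) and by 0.54 and 0.34 in siStag3 (adjusted p 0.000351 and 0.00725), and Fads2 by 0.24 in siStag3 (adjusted p 0.0361). Of 20 other transport and uptake genes 1 fell in siLuc, Gramd1a (-0.27, adjusted p 0.0431), named after its value was seen, and the GC correction left it at -0.09. None of 12 genes of the isoprenoid branches passed in any comparison. In siStag3 against siLuc no gene of these 5 lists passed in the edgeR test. Without the set, Abcg1 passed in siLuc and Abcg1 and Mylip in siStag3, and no other listed gene did.

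**Figure D4:**
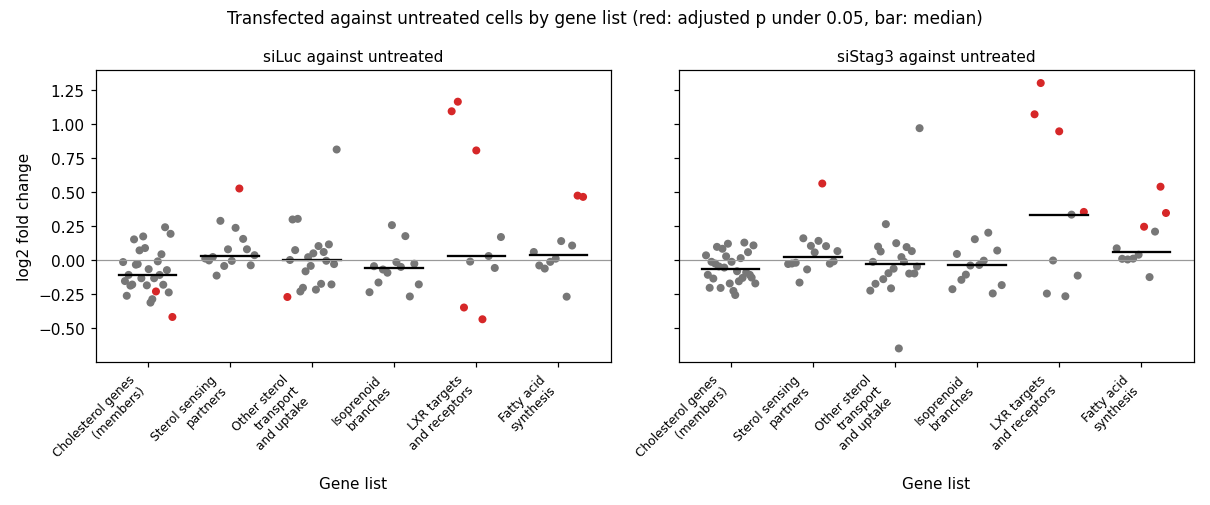
Log2 fold change of each tested gene of the 28 members and of 5 other lists, in siLuc (left) and siStag3 (right) against untreated cells, with genes of adjusted p under 0.05 in red and the median of each list as a bar. The 28 members lie within a narrow band with medians of -0.11 and -0.07, while single LXR targets rise above 1.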

How the data were processed

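mRNA libraries were made from 200 ng of total RNA using a KAPA mRNA kit, according to the labels' protocols. Raw counts per gene, as whole numbers, are what the authors deposited. Per the submitters' processing notes, FastQC, Salmon, DESeq2 and the build GRCm39 were used, with no role or order given, so the deposited counts may be rounded Salmon estimates. The strand setting and annotation release are not given in the sources used here. No gene in the table sums to under 9 counts. Columns carry a group, a set and an experiment number but no replicate number, so each was assigned to a group only.

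From these counts, all 9 libraries entered 1 fit of edgeR 4.0.16 in R 4.3.3 (TMM, filterByExpr, robust glmQLFit, glmQLFTest), with a mean per group and the set as an additive term. In all, 14246 genes were tested. Two-sided p-values were adjusted over all tested genes (Benjamini-Hochberg), and 0.05 was the threshold. The SE is the absolute log2 fold change divided by the square root of F, and 95% intervals use the t quantile of the fit's degrees of freedom. CPM values are scaled by TMM factors. An amount of 3 counts, the smallest told from 0, equals 0.0674 to 0.102 CPM, which covers counting error only. In the main fit, p-values set a difference against the spread left between these libraries after the set term. That spread is smaller than without the set (biological coefficient of variation 7.62% against 14.6%).

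Lengths, GC content and gene overlaps came from GENCODE M21 (GRCm38), matched by gene ID for 99.8% of genes, and promoters from RefSeq. The GC correction subtracted the median deviation of each of 20 GC bins per library. The members, the lists, the set term and the rule for named genes (all members, with library values for those past the threshold and those of smallest p in each role group, and at most 6 listed genes per comparison) were chosen with earlier results of these data known. Values of single libraries are also given for Hmgcs1, Lbr, Dhcr7 and Rnf145, chosen after their values were seen. Library values of Abca1 are outside the rule too. Srebf1 and Fads2 in siStag3 against untreated cells go beyond the 6 listed genes of smallest p. Alternatives were DESeq2 1.42.0, other scalings and filters, fewer libraries, a block for set and experiment, and the fit without the set. The fits were also run on simulated counts with changes planted in siStag3 only, at the spread of the fit with the set. That run takes the set term as given and does not test the calls in siLuc against untreated cells.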

Additional observations from a re-analysis of the deposited data

How the results depend on the processing

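The columns carry no replicate numbers of the titles. A fit with the set and experiment of the column names as a replicate block, with 3 residual degrees of freedom, left the Set 3 library of siLuc in a block of its own, so that it adds nothing to the comparisons. Libraries of Set 1 with the same experiment number showed no shared deviation across 14246 genes (r of -0.0254, -0.0439 and -0.0371 between groups). Whether they were grown or prepared together cannot be read from this, and the labels do not state it. The block gave 2 genes and 0 members in siStag3 against siLuc, 86 genes and 0 members in siLuc against untreated (Tm7sf2 -0.41, adjusted p 0.199, and Npc2 -0.22, adjusted p 0.183, in edgeR) and 352 genes and 0 members in siStag3 against untreated. For the changes given here, the cause was not tested. The block and the alternatives for the differences between sets were added after the data were seen.

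Members past the threshold numbered 0 in siStag3 against siLuc under every alternative run, and from 0 to 0 when single libraries were left out. In siLuc against untreated cells the 2 members became 0 without the set, 0 in Set 1 alone, 4 with DESeq2, 6 with the GC correction and 8 with only the 6 libraries compared (7 lower, with Stard4 higher), and 0 to 1 with 1 library left out. In siStag3 against untreated cells the 0 members became 2 in Set 1 alone and 2 with the GC correction, and 0 to 5 with 1 library left out. Wherever more members passed between groups than in the main fit, more of all genes passed as well. In siLuc against untreated cells these were 1328 with DESeq2 and 942 with the GC correction, from 598. Between sets 13 to 18 members passed with 1 library left out.

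Over all genes, siStag3 against siLuc gave 4, or 0 without the set, 22 with DESeq2, 72 with the GC correction, 1 with only the 6 libraries compared and 0 to 4 with 1 library left out. siLuc against untreated gave 598 (235 higher, 363 lower), or 1 without the set, 1328 with DESeq2, 298 in Set 1 alone, 942 with the GC correction, 1801 with only the 6 libraries compared and 111 to 387 with 1 library left out. Scaling by total count gave 761 (161 higher, 600 lower). siStag3 against untreated gave 361 (153 higher, 208 lower), or 2 without the set, 949 in Set 1 alone, 989 with the GC correction and 78 to 1591 with 1 library left out, the 1591 without the siStag3 library of Set 3. Scaling by total count gave 356 (100 higher, 256 lower). Between sets 4162 to 6355 genes passed with 1 library left out.

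Over all 28 members, the sign changed in siStag3 against siLuc for 12 members in Set 1 alone, 10 with the block and 4 with the GC correction. In siLuc against untreated it changed for 2, 3 and 4 members under the same settings, with Ggps1 going from 0.15 to -0.0076 and Idi1 from 0.07 to -0.13 under the GC correction, and in siStag3 against untreated for 4, 0 and 6. Among the genes named by the rule, in Set 1 alone, siStag3 against siLuc became -0.11 for Mvk, -0.0135 for Fdft1 and -0.0213 for Srebf2, and siStag3 against untreated became 0.0119 for Fdps. The GC correction gave -0.0406 for Mvk against siLuc, and 0.0109 for Fdps and -0.0115 for Insig2 against untreated, and total count scaling -0.0182 for Insig2. The block gave -0.0568 for Mvk and -0.0062 for Fdft1 in siStag3 against siLuc. With 1 library left out, siStag3 against siLuc ran from -0.0838 to 0.0880 for Mvk and from -0.0059 to 0.108 for Fdft1, and siStag3 against untreated from -0.0676 to 0.0568 for Fdps and from -0.0598 to 0.0947 for Insig2. The sign of the median over the members changed in none of the alternatives run.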
